A study of Mus musculus with 8 samples.

Results

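The 9 genes described here encode RNA-binding proteins that control the splicing, stability and translation of messenger RNA, most of them in neurons. They are Elavl2, Elavl3 and Elavl4, Nova1 and Nova2, Ptbp1 and Ptbp2, and Mbnl1 and Mbnl2. The members are all probe sets on the array whose platform annotation names exactly 1 of these genes. This gave 28 probe sets of 45101, between 2 and 5 for each gene, and 24 of them were bright enough to be tested. Their values come from mouse total RNA on 8 Affymetrix mouse expression arrays, where a probe set is a group of short oligonucleotides that together give 1 signal for a transcript. By their titles 4 arrays are Ctrl, the controls, and 4 are Exp, and each group is numbered 1 to 4. They state no genotype, strain, treatment, time or age for either group, and nothing that the groups share beyond species and tissue. A label field names the tissue as trigeminal ganglion, which holds the sensory neurons of the face, while the source field names brain and adrenal medulla. The labels do not say whether every array came from its own animal. The p-values therefore set the difference between groups against the spread between these arrays, part of which may be technical.

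The Elavl proteins of neurons, also called Hu proteins, bind AU-rich stretches in the 3' ends of transcripts and stabilise them, and they also act on splicing. The Nova and Ptbp proteins decide whether exons enter the mature transcript. Nova proteins act in neurons, and Ptbp1, the polypyrimidine tract-binding protein of most dividing and non-neuronal cells, represses neuronal exons and the expression of its relative Ptbp2. Neurons lose Ptbp1 and gain Ptbp2 as they differentiate. The muscleblind proteins Mbnl1 and Mbnl2 regulate splicing during the late development of muscle and brain, and their loss from the soluble pool underlies myotonic dystrophy.

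Signals are the deposited linear values, which had the same trimmed mean of 2500 on every array and a median between 478 and 553. Differences between groups are given in log2 units of signal + 16 after quantile normalization, so 1 unit is a doubling. Each probe set has its own efficiency of hybridisation, so the level of a gene is not ranked against that of another, and probe sets of 1 gene are compared only for whether their difference within an array varies between arrays. Of the neuron markers fixed for this work, 10 of 11 were tested. Their mean level per array stayed between -0.01 and 0.08 log2 units of their 8-array mean in Ctrl and between -0.07 and 0.02 in Exp. Of the 9 tested skeletal muscle markers, the summed signal ran from 7177 to 11297 in Ctrl and from 4830 to 67100 in Exp, with the highest value on Exp 3 and the lowest on Exp 4. In bulk RNA, fewer cells of a type and less RNA per cell cannot be told apart. Signals of Xist and of Y-linked genes placed Ctrl 3, Exp 1 and Exp 4 apart from the other arrays, so each group held RNA of more than 1 animal.

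The splicing and RNA-binding regulators had mostly small differences between Exp and Ctrl. Of the 24 tested probe sets, 15 were higher and 9 lower in Exp, with a median difference of 0.03 log2 units and a range from -0.49 to 0.30. None passed the 5% false discovery rate in limma (smallest adjusted p = 0.999), where 0.00370% of all 27022 tested probe sets passed. At an unadjusted p under 0.05 there were 2, both lower in Exp, or 8.33% of the members against 4.69% of all probe sets. The groups overlapped in all 24, against groups that did not overlap in 2.34% of all probe sets, and 0 of the 24 had an exact permutation p under 0.05. For each of the 24 the 95% confidence interval lay within a doubling in either direction, as it did for 93.5% of all tested probe sets. For 17 of the 24 it lay within a 1.5-fold change, as it did for 17822 of the 27022 tested probe sets. The median difference over all tested probe sets was -0.01.

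**Figure D1:**
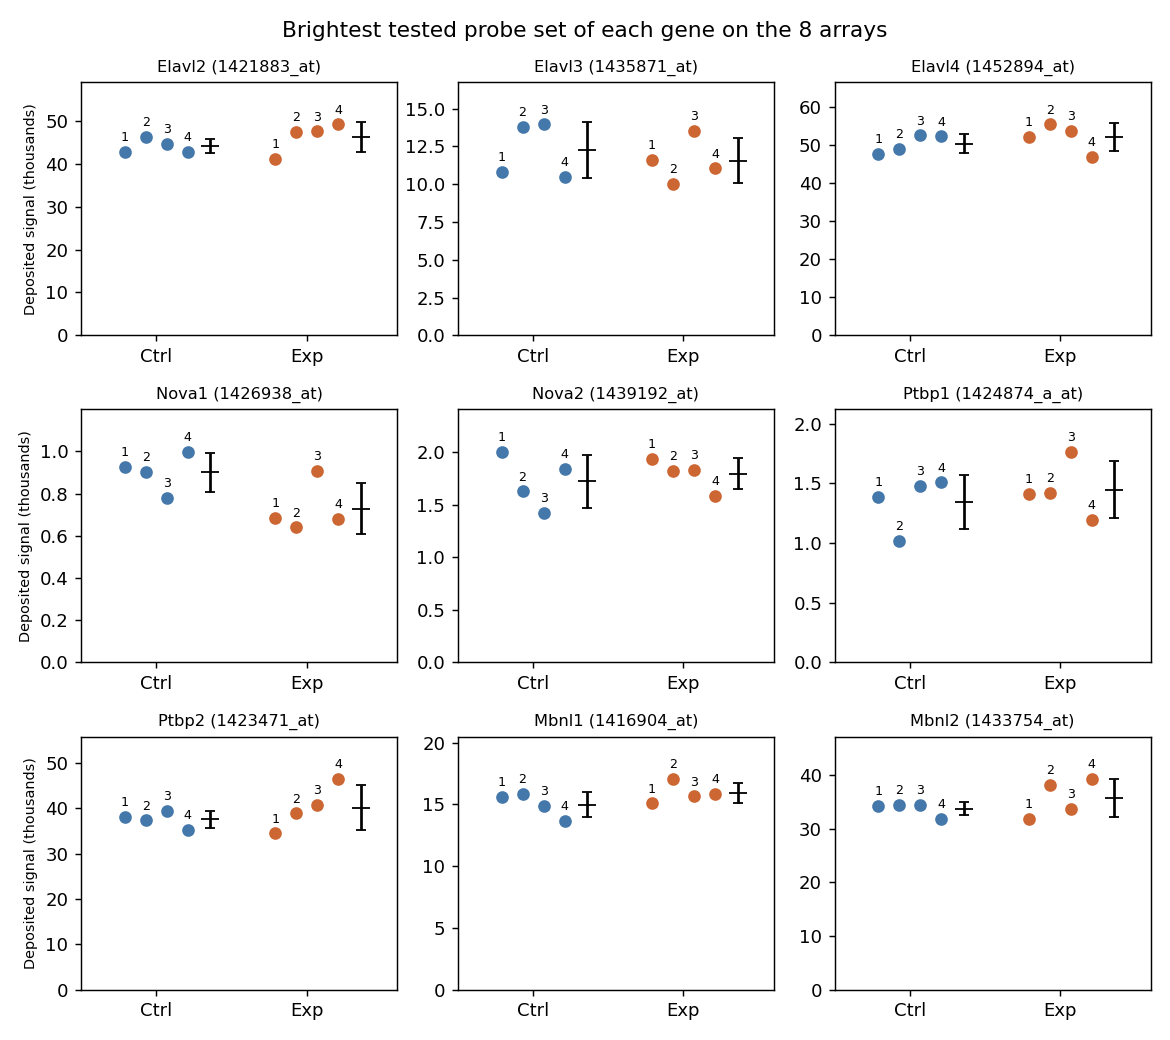
Deposited signal, scaled down as the axis title says (vertical axes, linear, from 0), of the brightest tested probe set of each of the 9 genes on the 4 Ctrl arrays (blue) and 4 Exp arrays (orange). Small digits give the array number, and the black bar and whiskers give the mean and SD of the group. The groups overlap in every panel, and the panel for Nova1 shows Exp 1, Exp 2 and Exp 4 between 640 and 687 while Exp 3, at 906, lies among the Ctrl arrays.

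Elavl2 (HuB), the Hu protein also found in germ cells, was read by 5 probe sets, all tested. The brightest, 1421883_at, gave signals of 42866, 46316, 44741 and 42889 on Ctrl 1 to 4 and of 41087, 47392, 47583 and 49197 on Exp 1 to 4. In these deposited signals the Exp arrays spanned a wider range than the Ctrl arrays and enclosed it. After normalization the Exp arrays stood at 15.39 to 15.52, inside the Ctrl range of 15.36 to 15.57. The difference was 0.03 log2 units (SE 0.09, 95% confidence interval -0.17 to 0.24, exact permutation p = 0.629, n = 4 per group). The second, 1421882_a_at, whose suffix marks a probe set shared by several transcripts of the gene, gave 27203, 30070, 27751 and 28003 in Ctrl and 31189, 27504, 33194 and 24794 in Exp. Its group difference was also 0.03 (SE 0.12). Of the Exp arrays, however, Exp 4 had the highest value of the first probe set and the lowest of the second. The other 3 probe sets differed by between -0.03 and 0.09.

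Elavl3 (HuC), a Hu protein of neurons that is widely used as an early neuronal marker, was read by 3 probe sets. The brightest, 1435871_at, had signals of 10832, 13777, 13946 and 10472 in Ctrl and 11616, 10002, 13537 and 11038 in Exp. Both groups held high and low arrays, and the difference was -0.07 (SE 0.13, 95% confidence interval -0.37 to 0.24). Its other probe sets differed in opposite directions, 1455484_at by -0.25 (SE 0.15) and 1452524_a_at by 0.22 (SE 0.16), and neither passed limma's test. The mean of the 3 probe sets differed by -0.04 (SE 0.10).

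Elavl4 (HuD), the Hu protein that stabilises Gap43 transcripts in growing axons, had signals of 47576, 48857, 52444 and 52194 in Ctrl and 52065, 55313, 53549 and 46839 in Exp for probe set 1452894_at. The lowest and the highest of the 8 values were both Exp arrays. The group means were 15.64 ± 0.06 in Ctrl and 15.64 ± 0.14 in Exp (log2, SD, n = 4 each), and the 95% confidence interval of the difference ran from -0.23 to 0.23. The remaining probe sets, 1428741_at and 1450258_a_at, differed by -0.10 (SE 0.12) and 0.07 (SE 0.09). All probe sets of the 3 Elavl genes had intervals that contained 0.

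Nova1, which regulates exons of synaptic and inhibitory receptor transcripts, was lower on 3 of the 4 Exp arrays. Probe set 1426938_at gave 925, 903, 778 and 999 in Ctrl and 687, 640, 906 and 681 in Exp. After normalization Exp 3 stood at 9.91, inside the Ctrl range of 9.66 to 10.04, and the other Exp arrays stood between 9.32 and 9.41, below every Ctrl array. The difference was -0.35 (SE 0.15, 95% confidence interval -0.70 to -0.0049, unadjusted p = 0.0475, adjusted p = 0.999 in limma), a ratio of 0.784. The exact permutation p was 0.0857, where 0.0286 is the smallest that 4 against 4 arrays can give. Without Exp 3, the array with the highest muscle markers, the difference was -0.49 (adjusted p = 0.706). The part of those markers in the Nova1 value was not tested. The other Nova1 probe set, 1452245_at, fell under the filter with signals of 18 to 102 in Ctrl and 66 to 192 in Exp. It differed in the opposite direction, by 0.78 (SE 0.45, adjusted p = 0.997 in the limma fit without a filter).

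Nova2, the Nova protein of cortex and of many other neurons, was tested with 1 of its 2 probe sets. That probe set, 1439192_at, gave 2005, 1627, 1424 and 1841 in Ctrl and 1937, 1825, 1834 and 1588 in Exp. The Exp values lay inside the Ctrl range, and the difference was 0.04 (SE 0.12, 95% confidence interval -0.24 to 0.33). The second, 1439099_at, had signals of 6 to 24 in Ctrl and 10 to 20 in Exp, which is too low to read a change from. The Nova1 difference, at an unadjusted p under 0.05, was not tested against that of Nova2.

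Ptbp1 had the widest spread over the 8 arrays among the 9 brightest probe sets, 0.76 log2 units. Its probe set 1424874_a_at gave 1386, 1016, 1477 and 1507 in Ctrl and 1414, 1420, 1765 and 1192 in Exp. The lowest value was Ctrl 2 and the highest Exp 3, and the difference was 0.07 (SE 0.17, 95% confidence interval -0.30 to 0.45). Among the Exp arrays the order of this probe set was that of the muscle markers. Exp 1 and Exp 2 were nearly equal in it, however, at 10.42 and 10.45 after normalization. The mean of the muscle markers was highest on Exp 3 (2.16), followed by Exp 2 (0.80), then Exp 1 (-0.12), and lowest on Exp 4 (-1.04). The Ctrl arrays did not keep that order, as Ctrl 2 had a marker mean of -0.30, above Ctrl 1 (-0.80) and Ctrl 3 (-0.47). Probe set 1458284_at was highest on Exp 1 and 1450443_at on Exp 2. The part of the muscle markers was not tested. Without Exp 3 the difference of 1424874_a_at was -0.05, and without Ctrl 2 it was -0.03. Markers of dividing cells, in which Ptbp1 is the main family member, ran from -0.29 to 0.10 in Ctrl and from -0.10 to 0.29 in Exp. The other probe sets, 1458284_at and 1450443_at, differed by -0.27 (SE 0.25) and 0.21 (SE 0.18), so that the mean of the 3 differed by 0.0042 (SE 0.11).

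Ptbp2, the neuronal relative also called nPTB, had signals of 38088, 37307, 39474 and 35192 in Ctrl and 34429, 38839, 40764 and 46454 in Exp for probe set 1423471_at. Exp 4 was the highest array and, in these signals, Exp 1 the lowest. After normalization Ctrl 4 was the lowest, at 15.09, and Exp 1 stood at 15.13. The difference was 0.06 (SE 0.10, 95% confidence interval -0.16 to 0.29), which places the Exp to Ctrl ratio between 0.892 and 1.22. The second probe set, 1423470_at, gave 21393, 22867, 23540 and 20491 in Ctrl and 23825, 18165, 23894 and 20102 in Exp, a difference of -0.05 (SE 0.12). For both Ptbp genes the difference between the groups was smaller than the spread of the arrays.

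Mbnl1, the muscleblind protein of many tissues, gave 15616, 15820, 14887 and 13633 in Ctrl and 15081, 17069, 15649 and 15866 in Exp for probe set 1416904_at. Exp 2 and Exp 4 were above all Ctrl arrays and the other Exp arrays inside their range, and the difference was 0.10 (SE 0.09, 95% confidence interval -0.11 to 0.31, exact permutation p = 0.171, n = 4 per group). Probe set 1440315_at differed by 0.30 (SE 0.16, unadjusted p = 0.0904), and the mean of both by 0.20 (SE 0.11). Its remaining probe set, 1457924_at, was under the filter and varied from 36 to 457 over the arrays.

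Mbnl2, the muscleblind protein with the larger role in brain, had 5 probe sets, of which 4 were tested. The brightest, 1433754_at, gave 34250, 34365, 34405 and 31869 in Ctrl and 31757, 38094, 33650 and 39257 in Exp. In these signals Exp 2 and Exp 4 were above all Ctrl arrays and Exp 1 just below them. After normalization Exp 1, at 15.00, lay above Ctrl 4, at 14.95. The difference was 0.06 (SE 0.10, 95% confidence interval -0.17 to 0.28). Probe set 1457237_at, in contrast, gave 534, 458, 410 and 532 in Ctrl and 281, 320, 297 and 580 in Exp. Exp 1, Exp 2 and Exp 3 lay below every Ctrl array, whereas Exp 4 was the highest of all 8. Its difference was -0.49 (SE 0.21, 95% confidence interval -0.96 to -0.02, unadjusted p = 0.0439, adjusted p = 0.999 in limma, exact permutation p = 0.143). Without Exp 4 it was -0.71 (adjusted p = 0.761). Of the other tested probe sets, 1455827_at differed by -0.04 (SE 0.19) and 1457477_at by 0.26 (SE 0.16). The untested 1436858_at, just under the filter, differed by -0.53 (SE 0.37), with signals of 160 to 525 in Exp and 319 to 571 in Ctrl. The mean of the 4 tested probe sets differed by -0.05 (SE 0.12).

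**Figure D2:**
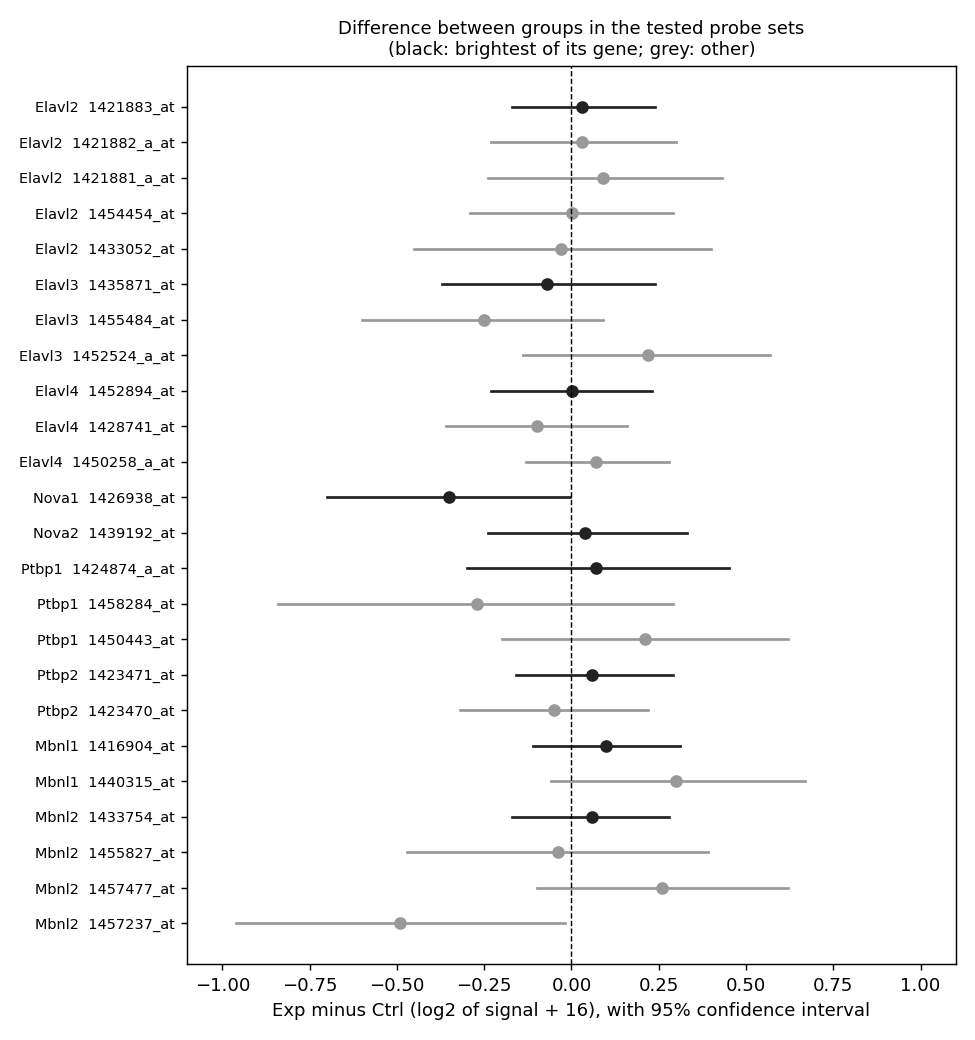
Exp minus Ctrl in log2 of signal + 16 (horizontal axis) for each of the 24 tested probe sets (vertical axis), with the point at the limma estimate and the line over its 95% confidence interval. Black marks the brightest probe set of a gene and grey the others, and only Nova1 1426938_at and Mbnl2 1457237_at have an interval that stops short of 0.

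Probe sets of the same gene were then set against each other within each array, on the quantile normalized values. A constant factor on a whole array hardly moves such a difference, whereas quantile normalization can move it. With the brightest tested probe set as reference the comparison gave 15 pairs in 7 genes. After adjustment over the 15, 0 of them differed between Exp and Ctrl (smallest exact permutation p = 0.0857, adjusted p = 0.814, n = 4 per group). That smallest value belonged to Mbnl2 1457237_at, whose difference from the brightest Mbnl2 probe set was -6.06 ± 0.19 in Ctrl and -6.61 ± 0.37 in Exp (log2, SD).

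The pairs also differed in how much they varied among the arrays of a group. For Elavl2, 1421882_a_at minus 1421883_at was -0.65, -0.69, -0.70 and -0.59 on the Ctrl arrays and -0.42, -0.77, -0.52 and -0.93 on the Exp arrays. For Ptbp2, 1423470_at minus 1423471_at was -0.82, -0.75, -0.76 and -0.77 in Ctrl and -0.57, -1.09, -0.75 and -1.13 in Exp. In both, Exp 1 was the highest array and Exp 4 the lowest, and the SD was 0.05 in Ctrl and 0.24 in Exp for Elavl2, and 0.03 and 0.27 for Ptbp2. For Elavl4, 1428741_at minus 1452894_at was -0.57, -0.46, -0.46 and -0.41 in Ctrl and -0.60, -0.90, -0.50 and -0.33 in Exp, with an SD of 0.07 and 0.24. For a further Elavl2 pair, 1433052_at minus 1421883_at, the SD was 0.13 in Ctrl and 0.42 in Exp. In these last pairs Exp 4 was the highest array, at -0.33 and -5.46, the opposite of its place in the first ones. The 4 pairs were chosen after their values had been seen. An SD that was larger in Exp by any amount was found in 9 of the 15 pairs and in 54.7% of 9702 pairs over all genes with several tested probe sets. An SD 4-fold larger in Exp was found in 2 of the 15 pairs and in 3.23% of the 9702. The median SD was 0.194 in Ctrl and 0.250 in Exp for the member pairs, and 0.244 and 0.263 for the 9702. Whether the members differed from the other genes in this was not tested.

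The ratio of 3' to 5' signal of the array's actin control, a measure of RNA quality, was 22.0, 20.3, 20.3 and 19.8 on Ctrl 1 to 4 and 20.9, 25.5, 23.0 and 24.5 on Exp 1 to 4. On all 8 arrays the 3' signal was thus many times the 5' signal, from 19.8 to 25.5 times, a strong 3' bias in both groups. How far this bias shaped the signals of single probe sets was not tested. The ratio differed by 0.19 log2 units between the groups (exact permutation p = 0.0571, n = 4 per group). Among the Exp arrays, Exp 2 and Exp 4 had the highest ratios and the lowest values of Elavl2 1421882_a_at and Ptbp2 1423470_at against their references. Over all 8 arrays, too, Exp 2 and Exp 4 were highest in the ratio and lowest in both pairs. The remaining arrays did not keep that order. Ctrl 2, Ctrl 3 and Ctrl 4 had lower ratios than Exp 1 and also lower pair values. Exp 3, with a ratio above every Ctrl array, had an Elavl2 value above every Ctrl array, and its Ptbp2 value of -0.75 was that of Ctrl 2. The part of RNA quality in these differences was not tested, and the positions of the probe sets along the transcripts were not used here.

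**Figure D3:**
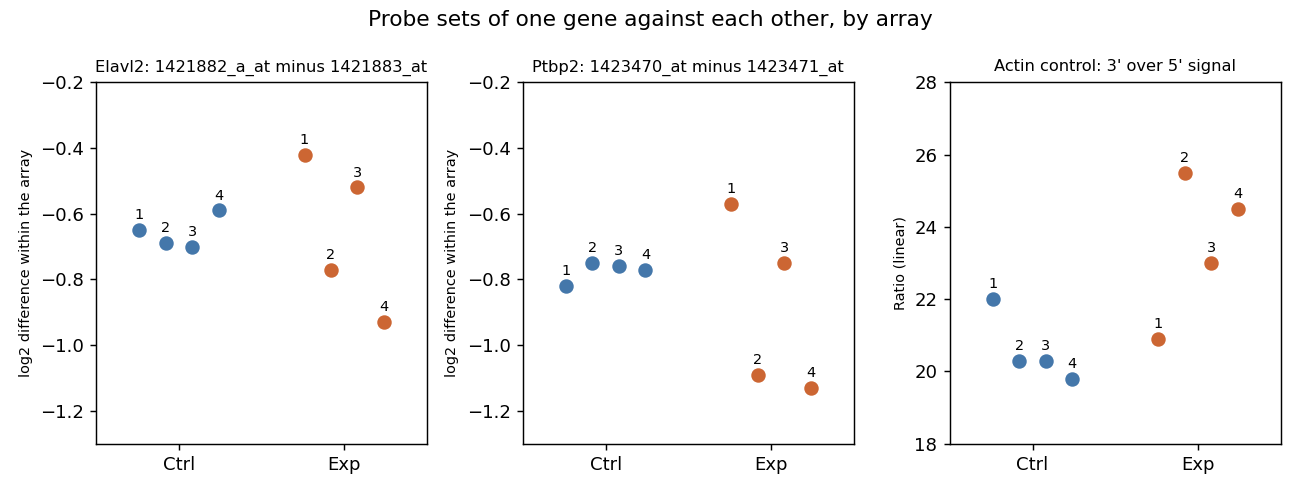
Within-array difference in log2 units between a pair of probe sets of Elavl2 (left) and of Ptbp2 (middle), and the linear 3' to 5' ratio of the actin control (right), for the 4 Ctrl arrays (blue) and 4 Exp arrays (orange), with small digits for the array number. In the left and middle panels Ctrl arrays sit close together, between -0.70 and -0.59 and between -0.82 and -0.75, and Exp arrays spread above and below them.

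The tightness of the member signals was close to that of other probe sets. The median SD within groups was 0.199 log2 units over the 24 tested probe sets and 0.226 over all tested probe sets, and 17 of the 24 lay below the median SD of probe sets of like signal (a bin with 10% of the probe sets). Elavl4 1450258_a_at was the tightest at 0.0740 and Ptbp1 1458284_at the most variable at 0.407.

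The wider set of RNA-binding regulators and their targets was tested by the same model. Of 87 listed genes, 81 were on the array and 77 were tested by their brightest tested probe set. Of these, 45 were higher and 32 lower in Exp, with a median of 0.02 against -0.01 over all 12763 genes. None passed limma's 5% false discovery rate. At an unadjusted p under 0.05 there was 1 of 77, against 3.73% of all genes. Groups did not overlap in 2 of 77 (exact permutation p under 0.05), against 2.25% of all genes. The first share was below that of all genes and the second was close to it. The closest relatives of the 9 genes differed by 0.09 (Elavl1, the Hu protein of all tissues, SE 0.14), 0.12 (Ptbp3, SE 0.09) and 0.10 (Mbnl3, SE 0.21). This Mbnl3 difference was -0.04 without Exp 2. All other tested probe sets of these genes were lower in Exp. They differed by -0.39 (SE 0.19, unadjusted p = 0.0705 in limma), -0.29, -0.04 and -0.0012 for Elavl1, -0.05 for Ptbp3, and -0.19 and -0.03 for Mbnl3.

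Among the other neuronal splicing regulators, 7 of 15 were higher and 8 lower, and 0 of 15 had an unadjusted p under 0.05 in limma. The Rbfox proteins, which bind GCAUG motifs beside neuronal exons, differed by 0.02 (Rbfox1, SE 0.12), -0.03 (Rbfox2, SE 0.15) and -0.002 (Rbfox3, the antigen NeuN, SE 0.13). Rbfox3 gave signals that placed Exp 1 lowest at 14.93 and the other 7 arrays between 15.21 and 15.43 (log2). Celf4 differed by -0.0039 (SE 0.16) and Srrm4, the activator of neuronal microexons, by 0.10 (SE 0.15). The directions of Rbfox1, Rbfox2, Rbfox3 and Celf4 changed under several alternatives of the processing. The smallest p in this role was that of Srrm3, at 0.31 (SE 0.23, unadjusted p = 0.212), followed by Celf3 at 0.18 (SE 0.14) and Khdrbs3 at -0.17 (SE 0.13). Of the PTB partners only Matr3 was tested, and it differed by 0.01 (SE 0.08).

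Among regulators of translation and transport, 10 of 14 were higher. Msi1 (Musashi-1), a translational regulator of neural progenitors, gave 2042, 1977, 1781 and 1997 in Ctrl and 2645, 2116, 2326 and 2595 in Exp for probe set 1452287_at. Every Exp array was above every Ctrl array, and the difference was 0.30 (SE 0.11, unadjusted p = 0.0203, adjusted p = 0.999 in limma, exact permutation p = 0.0286). Its other tested probe set, 1444306_at, differed by 0.22 with an SE of 0.42 and overlapping groups. Fmr1, the gene of fragile X syndrome, differed by -0.16 (SE 0.12) and Cpeb1, which controls poly(A) tail length, by 0.11 (SE 0.10).

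Of the general splicing factors, 17 of 27 were higher and 0 had an unadjusted p under 0.05 in limma. U2af2, which recognises the 3' splice site, differed by 0.22 (SE 0.11, unadjusted p = 0.0743) and Hnrnpl by 0.17 (SE 0.16). Srsf10 gave 9419, 10078, 9745 and 9310 in Ctrl and 10601, 10475, 10187 and 11482 in Exp, groups that did not overlap, with a difference of 0.17 (SE 0.09, exact permutation p = 0.0286, adjusted p = 0.999 in limma). Its other tested probe sets differed by 0.06, -0.06 and 0.02.

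**Figure D4:**
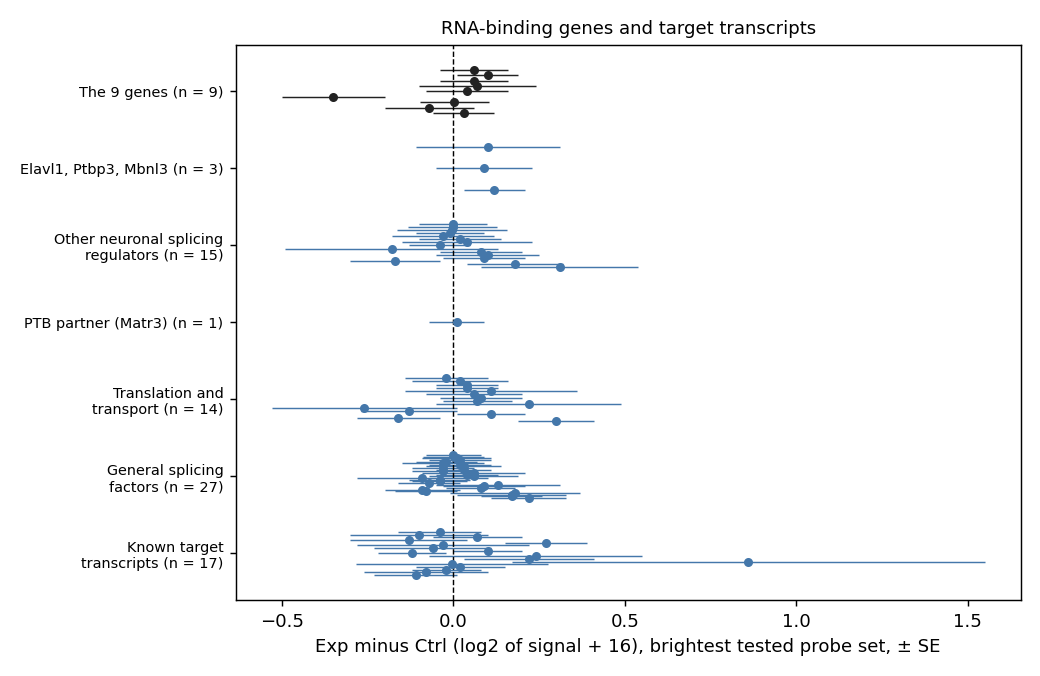
Exp minus Ctrl in log2 of signal + 16 (horizontal axis) with its SE, for the brightest tested probe set of each of the 9 genes (black) and of 77 related genes (blue), grouped by role on the vertical axis. Most points lie near 0, and the point at 0.86 with a wide error among the target transcripts is Tnnt2.

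Transcripts known as targets of these proteins were measured for their total level, since most probe sets do not tell exons apart. Of 21 listed, 17 were tested, 7 were higher and 10 lower, and 0 had an unadjusted p under 0.05 in limma. Gap43 and Mapt, bound by Hu proteins, differed by 0.02 (SE 0.13) and -0.02 (SE 0.10). Gphn and Agrn, with Nova-dependent exons, differed by -0.12 (SE 0.10) and 0.10 (SE 0.10). Src, with a neuronal exon that Ptbp1 represses, differed by 0.27 (SE 0.12, unadjusted p = 0.0501) in its brightest probe set and by -0.16 (SE 0.23) in another. Dlg4, whose transcript is destabilised by Ptbp1 and Ptbp2, differed by -0.10 (SE 0.20). Tnnt2, a troponin with an exon regulated by Mbnl proteins, gave 465, 531, 464 and 529 in Ctrl and 656, 1079, 4206 and 271 in Exp. Its difference of 0.86 (SE 0.69) came with the order of Exp arrays that the muscle markers had, Exp 3 first and Exp 4 last, and the part of those markers was not tested.

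Cell type markers stood as follows on the arrays that gave these values. None of the tested marker genes passed limma's 5% false discovery rate. Markers of Schwann cells and satellite glia were lower in Exp in 7 of 8 genes, with list means of -0.04 to 0.16 in Ctrl and -0.19 to 0.08 in Exp. Neuron markers were higher in 5 of 10 genes, and Uchl1, a ubiquitin hydrolase abundant in neurons, differed by -0.69 (unadjusted p = 0.00615, adjusted p = 0.999 in limma), with every Exp array below every Ctrl array. Of the 3 tested endothelial markers 1 was higher, Cdh5, the cadherin of endothelial junctions, by 0.63 (unadjusted p = 1.98e-04, adjusted p = 0.445 in limma), with every Exp array above every Ctrl array, while Kdr and Tek differed by -0.22 and -0.24. The endothelial list mean ran from -0.25 to 0.16 in Ctrl and from -0.22 to 0.42 in Exp. Of the 4 tested macrophage and leukocyte markers 2 were higher, and the list mean ran from -0.04 to 0.13 in Ctrl and from -0.18 to 0.11 in Exp. Ptprc, the leukocyte antigen CD45, differed by -0.34 (unadjusted p = 0.0168, adjusted p = 0.999 in limma), again with groups that did not overlap. Fibroblast markers ran from -0.24 to 0.15 in Ctrl and from -0.31 to 0.57 in Exp, with the highest on Exp 2. Of the 3 central glia markers only Aqp4 passed the filter, and Gfap and Olig2 did not. Of the markers of chromaffin cells, the cells of the adrenal medulla, Pnmt and Chga passed the filter and Dbh did not.

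By the pattern over the 8 arrays, the genes most like Ptbp1, the member with the widest range, were Ttll12, Spout1 and Sympk. The root mean square differences of their mean-centred log2 values from those of Ptbp1 were 0.0552, 0.0692 and 0.0754, the smallest of 12754 genes compared.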

How the data were processed

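Total RNA was the starting material for 8 arrays, 4 Ctrl and 4 Exp as named in the titles. The deposited values are linear intensity signals that the authors had scaled to 1 trimmed mean (checked on the file); their software and summary method: not given in the sources used here. Probe sets were named from the platform annotation, which names 1 gene for 34945, several for 932 and none for 9160 probe sets. After 64 control probe sets were left out, log2 of signal + 16 was quantile normalized, and 27022 probe sets with a mean at or above the 40th percentile (8.45) were tested.

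Groups were compared with limma 3.58.1 in R 4.3.3 (lmFit, eBayes, p-values adjusted by Benjamini-Hochberg across every tested probe set) and, for single values, with two-sided exact permutation tests over all 70 orders of the arrays. The script was tested on simulated data, where limma called 16% of changes of 0.5 log2 units and 70% of changes of 1 unit. The simulation held 50 changed probe sets at each of 0.5, 1, 1.5 and 2 log2 units. In the data only 1 of 27022 probe sets passed, and the adjusted cut-off is stricter where fewer pass. These shares therefore check the script and do not give the power in these data. The members, the lists of related genes and markers, and the tests were chosen with earlier results of these data known. Named genes are the 9 members with all their probe sets, and of each list the genes with the smallest p or fixed as examples; related genes are given by their brightest tested probe set. Alternatives changed the pseudocount, normalization, filter, variance model, array weights, a covariate for sex, the block and the arrays used. Array numbers were checked for pairing. Deviations of same-numbered arrays correlated at 0.02, 0.05, -0.07 and -0.12, which gave no sign of pairing. Such correlations cannot show whether arrays were paired by design. The number of arrays limits the precision.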

Additional observations from a re-analysis of the deposited data

Results flagged for a closer look

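In 8 of 56 groups of 4 arrays examined (28 probe sets, both groups), the highest or lowest array stood apart from the nearest other by a share of the group's range above Dixon's critical value at 95%. Chance flags about 1 group in 20, or 2.8 of the 56. Values are log2 of normalized signal + 16.

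For Elavl2 1421883_at, Exp 1 was low at 15.39 and the other Exp arrays were at 15.51 to 15.52. For Elavl2 1421882_a_at, Ctrl 2 was high at 14.88 against 14.74 to 14.77. Elavl4 1428741_at had a low array in both groups, Ctrl 1 at 14.98 against 15.19 to 15.24 and Exp 2 at 14.82 against 15.11 to 15.16. For Nova1 1426938_at, Exp 3 was high at 9.91 against 9.32 to 9.41. For the untested Nova1 1452245_at, Ctrl 3 was low at 5.15 against 6.66 to 6.82, with a deposited signal of 18. Ptbp1 1458284_at was low on Ctrl 3 at 9.65 against 10.08 to 10.16, and Mbnl2 1433754_at was low on Ctrl 4 at 14.95 against 15.08 to 15.09.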

How the results depend on the processing

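No member or related gene passed the false discovery rate under any of the 20 alternatives. Nova1 1426938_at and Mbnl2 1457237_at stayed lower in Exp wherever they were tested. Member probe sets with an unadjusted p under 0.05, 2 in the main analysis, numbered 0 with no further normalization, no filter, a stricter filter (60th percentile), trend and robust variance or a sex covariate, and 1 with gene means or without Exp 2 and Exp 3 (chosen after seeing the data); leaving out single arrays gave 0 to 2. With the array number as a replicate block it was 1. Related genes at that p, 1 in the main analysis, numbered 2 with a pseudocount of 1, no further normalization, the 60th percentile filter, array weights or the sex covariate, 0 with median centring, 3 without Exp 2 and Exp 3, and 0 to 4 without single arrays. Pairs of probe sets numbered 0 to 1 without single arrays.

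Small differences changed sign, and the cause was not tested. With no further normalization Elavl2 1433052_at was 0.02 and Rbfox3 0.03. With median centring Elavl2 1421882_a_at was -0.01, Elavl2 1454454_at -0.02, Elavl4 1452894_at -0.0034 and Rbfox1 -0.04. With array weights Elavl2 1454454_at was -0.02 and Celf4 0.09; with the sex covariate they were -0.01 and 0.02, and Rbfox3 was 0.02. Without Exp 2 and Exp 3, Elavl2 1421882_a_at was -0.01, 1454454_at -0.04 and 1433052_at 0.28, Elavl4 1452894_at -0.04, Nova2 -0.01, Ptbp1 1424874_a_at -0.10, Mbnl2 1455827_at 0.07 and Mbnl3 -0.14. As gene means Elavl4 was -0.01 and Mbnl2 -0.05. Leaving out single arrays gave Elavl2 1454454_at -0.06 to 0.09, Elavl4 1452894_at -0.04 to 0.07, Mbnl2 1455827_at -0.18 to 0.10, Rbfox3 1436450_at -0.05 to 0.12, Celf4 1452240_at -0.10 to 0.10, Ptbp1 1424874_a_at -0.05 to 0.17, Elavl3 1435871_at -0.14 to 0.000065, Nova2 1439192_at -0.04 to 0.10, Rbfox2 1434938_at -0.14 to 0.09, Rbfox1 1455358_at -0.05 to 0.08, Elavl2 1421882_a_at -0.02 to 0.11, Elavl2 1433052_at -0.21 to 0.11, Ptbp2 1423470_at -0.11 to 0.03, Mbnl3 1434678_at -0.04 to 0.25 and Elavl2 1421881_a_at -0.02 to 0.20.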

Other observations

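Mir124a-1hg, a host transcript of miR-124, the neuronal microRNA that represses Ptbp1, was looked up after its values had been seen. Its probe set 1435453_at gave 1693, 1272, 1861 and 1580 in Ctrl and 2324, 1880, 1713 and 2014 in Exp, with overlapping groups. The difference was 0.29 (SE 0.13, unadjusted p = 0.0467 in limma, exact permutation p = 0.0857). Mir124-2hg, the host transcript of another copy, differed by 0.04 (SE 0.17, unadjusted p = 0.822 in limma).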
